A study of Mus musculus with 6 samples.

Results

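Kit, the receptor tyrosine kinase of stem cell factor, and Kitl, the gene of that factor (Kit ligand), are 2 of the 34144 gene rows measured in the testes of wild-type (WT) and Nsun7-/- mice. They were taken by symbol, together with 8 Kit and 6 Kitl transcripts among 126126. Kitl was chosen by its measured gene level, which differed between the genotypes, so its genotype difference is given as a description without a test; Kit was not chosen for its own values. The animals were C57Bl/6J mice of 3 months, 3 WT and 3 Nsun7-/-, with 1 library of total RNA, depleted of ribosomal and globin RNA, per mouse. The labels do not describe the allele, and Nsun7 itself was lower but present in the Nsun7-/- libraries, at 36.5 ± 0.762 CPM in WT and 20.3 ± 4.19 CPM in Nsun7-/- (SD, n = 3 each). CPM is the count scaled to library size after TMM normalization. Nsun7-/- mouse 3 stood apart, at 25.2 CPM against 18 and 17.8 CPM in Nsun7-/- mice 1 and 2. In TPM, the deposited measure per transcript length, Nsun7 overlapped between genotypes, at 10.3, 12.8 and 15 in WT mice 1, 2 and 3 and 7.26, 7.49 and 12.7 in Nsun7-/- mice 1, 2 and 3. The seminiferous tissue of decapsulated testes was extracted whole, so fewer cells of a type and less RNA per cell cannot be told apart. Libraries held between 23480448 and 28558865 estimated counts.

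Kit ligand is made in the seminiferous epithelium by Sertoli cells, the somatic nurse cells of the tubule, and its receptor is carried by differentiating spermatogonia and by Leydig cells. Binding of the ligand pairs 2 receptors, which then phosphorylate each other and recruit PI3-kinase, Src-family kinases and the Ras pathway. The ligand is made first as a membrane protein. A variably spliced exon carries its main cleavage site, so that transcripts with the exon can yield a soluble factor while those without it stay mostly on the cell surface, the form on which spermatogonia are known to depend. Haploid spermatids make a shortened Kit from a start inside the gene, which lacks the extracellular and membrane-spanning parts.

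The forms compared here differ by short stretches of sequence, shown from the transcripts of GENCODE M21 (build GRCm38, both genes on the plus strand, Kit on chromosome 5 and Kitl on chromosome 10). All 8 Kit and 6 Kitl transcripts had the same length there as in the deposited tables, which were made against mm39. In Kitl the capitals mark exon 6, the 84 bases with the cleavage site, within positions 882 to 1025 of Kitl-202 (10 exons, reading frame of 273 codons). Kitl-201 (9 exons, 245 codons) joins the same flanks directly, at positions 596 to 655.
Kitl-202, with exon 6: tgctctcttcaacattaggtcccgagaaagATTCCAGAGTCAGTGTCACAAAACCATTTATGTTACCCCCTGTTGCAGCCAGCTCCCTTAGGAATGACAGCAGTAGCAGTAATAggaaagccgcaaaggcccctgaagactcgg
Kitl-201, without exon 6: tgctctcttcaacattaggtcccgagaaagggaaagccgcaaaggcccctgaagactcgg
In Kit the capitals mark 12 bases at the end of exon 9 that Kit-201 (979 codons) holds and Kit-204 (975 codons) lacks. They code for the stretch known as GNNK beside the membrane. The Kit-201 line covers its positions 1605 to 1676 and the Kit-204 line its positions 1644 to 1703.
Kit-201, with the insertion: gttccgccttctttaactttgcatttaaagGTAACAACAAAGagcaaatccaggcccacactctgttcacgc
Kit-204, without the insertion: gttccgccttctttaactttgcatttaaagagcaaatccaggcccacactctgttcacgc
The last line is the start of the short reading frame of Kit-208, the annotated transcript that begins inside the intron before exon 17. Its capitals are the 36 bases that precede exon 17, from an ATG that a search in the frame of the full-length receptor found at position 418. That frame runs on into the second part of the kinase domain, and the line ends at position 483.
Kit-208, truncated start: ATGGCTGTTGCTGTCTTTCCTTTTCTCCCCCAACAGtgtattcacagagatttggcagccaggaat

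The ligand gene was higher in every Nsun7-/- library, and this is the difference it was chosen for. Kitl stood at 6.7, 5.86 and 6.94 CPM in WT mice 1, 2 and 3 and at 11.2, 10.4 and 13.9 CPM in Nsun7-/- mice 1, 2 and 3. The genotypes did not overlap, and Nsun7-/- mouse 3 was the highest of the 6. The means were 6.5 ± 0.569 and 11.8 ± 1.84 CPM (SD, n = 3), a log2 fold change of 0.87 (SE 0.16), or 1.82-fold. These values rest on few reads, 148, 151 and 180 estimated counts in WT and 278, 277 and 430 in Nsun7-/-, so that counting error alone was between 4.82% and 8.22% of each value.

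The receptor differed little. Kit stood at 74.2, 72.1 and 73.3 CPM in WT mice 1, 2 and 3 and at 74.6, 75.4 and 76.1 CPM in Nsun7-/- mice 1, 2 and 3. The Nsun7-/- values lay just above the WT ones without overlap. Counting error was between 2.06% and 2.47% for the 1637 to 2351 counts per library. The means were 73.2 ± 1.04 and 75.4 ± 0.741 CPM (SD, n = 3), with 0.04 as the log2 fold change (SE 0.11) and an adjusted p of 0.916 by edgeR's quasi-likelihood test. The 95% interval of the difference ran from 0.879-fold to 1.21-fold. By exact permutation of the CPM, two-sided, p was 0.1, the smallest that 3 against 3 libraries allow, and 14.3% of all tested genes were likewise without overlap. Over all 21002 tested genes 0.567% passed an adjusted p of 0.05.

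**Figure D1:**
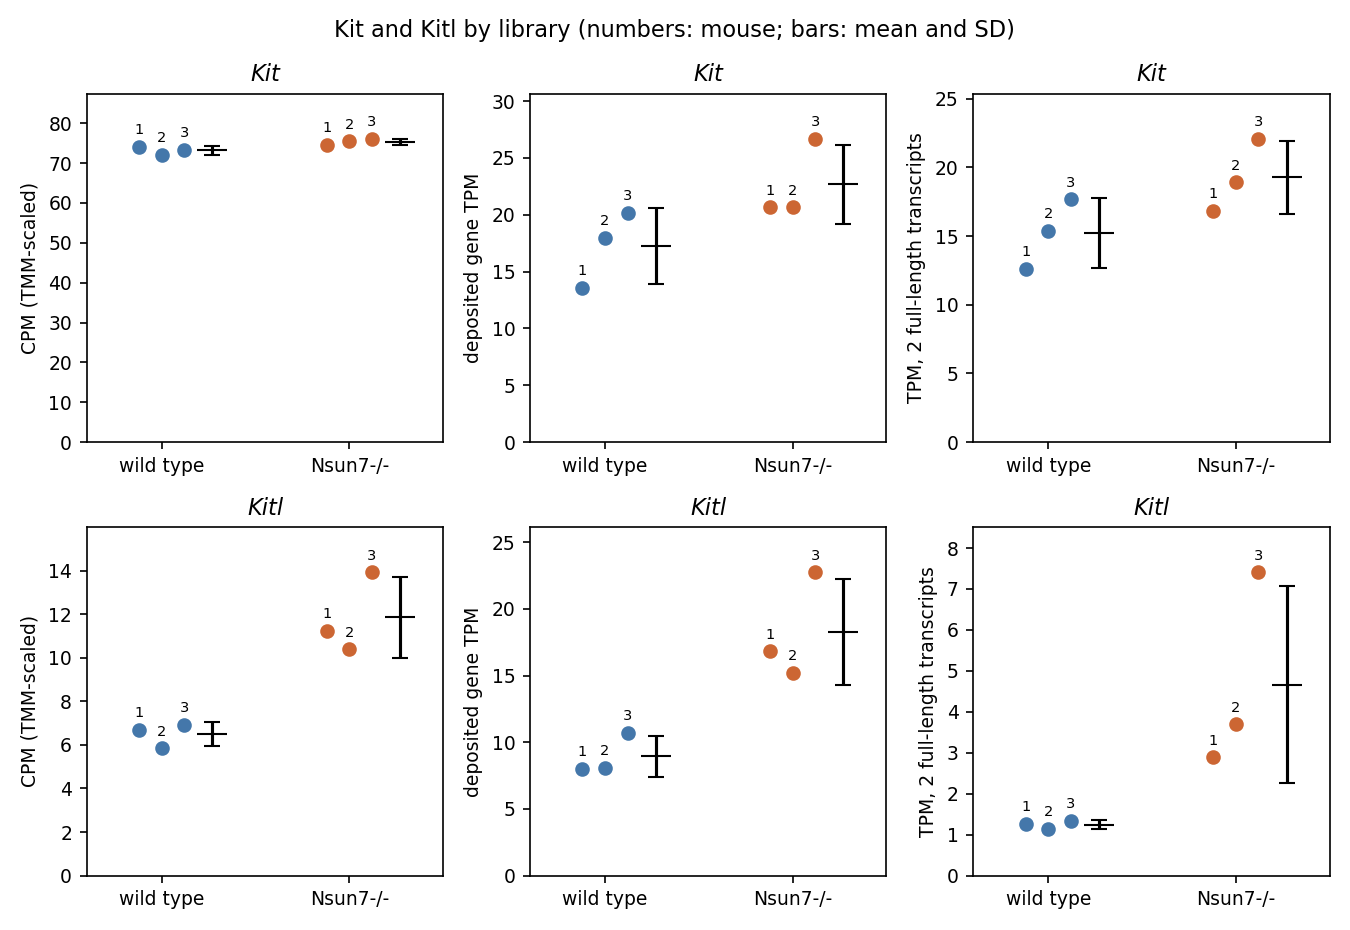
Kit (upper row) and Kitl (lower row) in each library as CPM, as deposited gene TPM and as TPM of the 2 full-length coding transcripts, with linear axes from 0. Points are mice, numbered, and bars are the mean and SD of 3. Kit stays between 72.1 and 76.1 CPM. The 3 Nsun7-/- values of Kitl lie above the 3 WT values on all of these scales. Those of Kit do so in CPM and gene TPM, but overlap with WT in full-length TPM.

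Per length, the gap between receptor and ligand depended on which transcripts were counted. TPM, the deposited measure that divides by transcript length, was 17.2 ± 3.37 for Kit and 8.94 ± 1.55 for Kitl in WT, and 22.7 ± 3.46 and 18.3 ± 3.95 in Nsun7-/- (SD, n = 3). On this scale Kit was 1.7, 2.22 and 1.88 times Kitl in WT mice 1, 2 and 3, and 1.23, 1.36 and 1.17 times Kitl in Nsun7-/- mice 1, 2 and 3. Most of the gene TPM of Kitl came from short transcripts that cannot code for the whole ligand. The 372-base Kitl-205, which holds the first exons and a last exon of its own, took 60.6%, 51.2% and 43.2% of it in WT and 53.8%, 49.5% and 37.3% in Nsun7-/-, on 19.6 to 38.3 estimated counts per library.

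Restricted to the full-length coding transcripts, the receptor was several times more abundant than the ligand. Kitl-201 and Kitl-202 together reached 1.26, 1.14 and 1.34 TPM in WT mice 1, 2 and 3 and 2.89, 3.7 and 7.4 TPM in Nsun7-/- mice 1, 2 and 3. Kit-201 and Kit-204 together reached 12.6, 15.4 and 17.7 TPM in WT and 16.9, 18.9 and 22.1 TPM in Nsun7-/-. The ratio of receptor to ligand was therefore 12.2 ± 1.95 in WT and 4.64 ± 1.48 in Nsun7-/- (SD, n = 3), with Nsun7-/- mouse 3 lowest at 2.98. The ratio moves with Kitl and carries the choice of that gene, so it was not tested. Full-length transcripts held 88.8% ± 3.91 of the gene TPM of Kit in WT but 14.1% ± 1.65 of that of Kitl. In Nsun7-/- these shares were 85.2% ± 5.37 and 24.7% ± 7.7. That of Kit overlapped between genotypes, and that of Kitl did not. Of Kitl counts the full-length transcripts held 52.4% ± 2.66 in WT and 64.2% ± 7.61 in Nsun7-/-, also without overlap. These shares of Kitl were not tested either. On the TPM scale the median over all tested genes was 0.24 higher in Nsun7-/-, in log2(TPM + 1), and Kit stood at 0.38 there (limma, adjusted p = 0.398).

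Both full-length ligand transcripts were higher in Nsun7-/-, again as a description. Kitl-202, with exon 6, held 55.6, 65.6 and 73.1 estimated counts in WT mice 1, 2 and 3 and 115, 117 and 181 in Nsun7-/- mice 1, 2 and 3, with a fitted log2 fold change of 0.90 (SE 0.21). Kitl-201, without it, held 24.1, 16 and 15.7 counts in WT and 42.9, 60 and 128 in Nsun7-/-, at 1.79 (SE 0.44). Neither transcript overlapped between the genotypes, and Nsun7-/- mouse 3 was highest for both. Without that mouse Kitl-201 was at 1.37. Kitl-205 held 19.6 to 27.1 counts in WT and 31.5 to 38.3 in Nsun7-/-. The 675-base Kitl-203 (13.1 to 29.2 against 22.4 to 59.6 counts) and the retained-intron Kitl-206 (27.3 to 39 against 25.7 to 51.8) overlapped between genotypes. Kitl-204, which skips exons including exon 6, had 3.45 counts in WT mouse 3 and 0 in the other 5 libraries.

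The balance of the exon 6 forms overlapped between genotypes. Of the counts on Kitl-201 and Kitl-202, the form with exon 6 took 69.8%, 80.4% and 82.3% in WT mice 1, 2 and 3 and 72.8%, 66% and 58.5% in Nsun7-/- mice 1, 2 and 3. Nsun7-/- mouse 1 fell between WT mice 1 and 2, and the means were 77.5% ± 6.72 and 65.8% ± 7.15 (SD, n = 3). By TPM the same shares were 41.6% ± 8.62 and 28.1% ± 6.41. The split does not measure exon 6 alone. Of the 4388 bases that Kitl-202 holds and Kitl-201 lacks, 4018 lie in its longer last exon and 84 in exon 6, while Kitl-201 has 0 bases of its own.

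**Figure D2:**
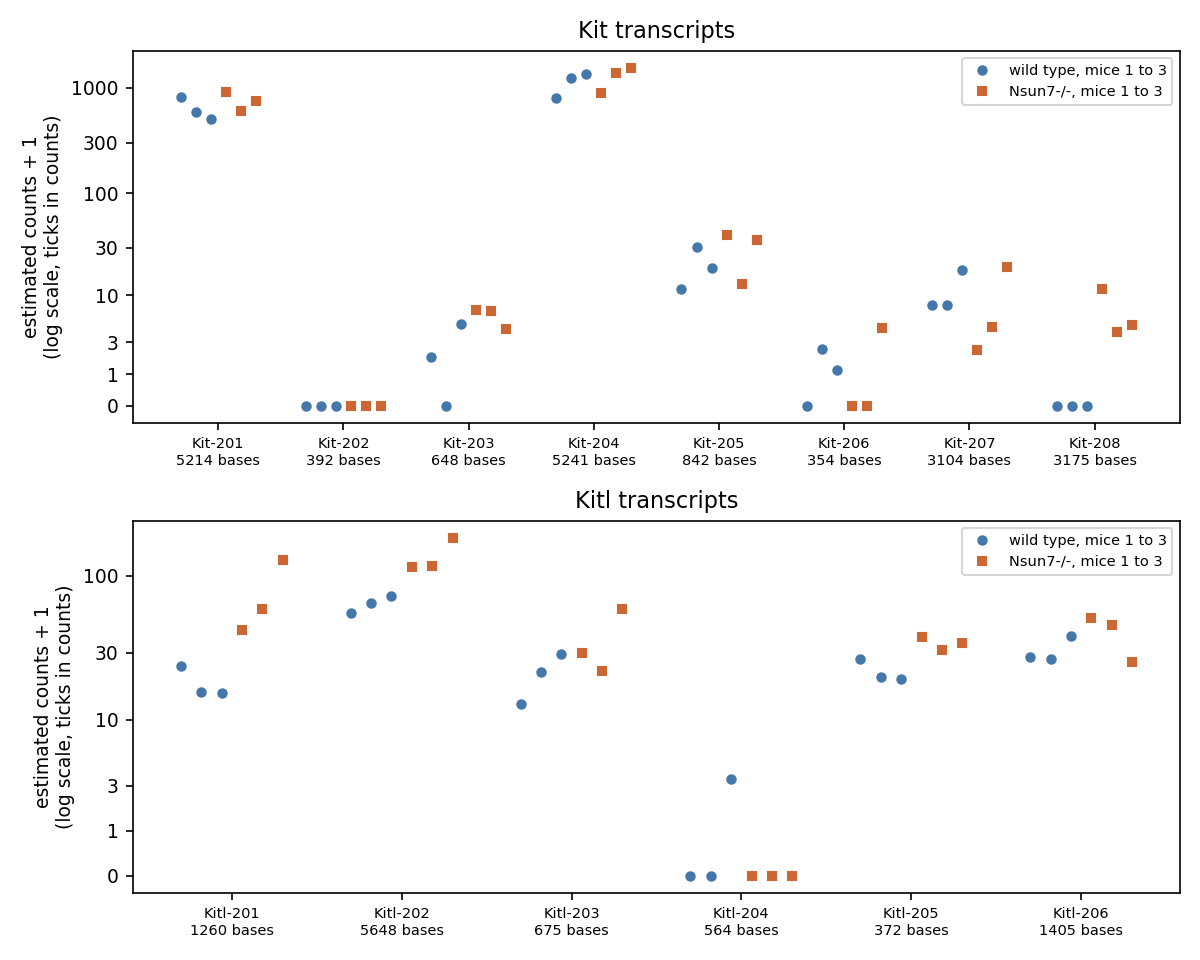
Estimated counts of each annotated Kit transcript (upper panel) and Kitl transcript (lower panel) in the 6 libraries, as log of counts + 1 with ticks in counts and transcript lengths below the names. Circles are WT and squares Nsun7-/-, in the order of mice 1 to 3. Kit-201 and Kit-204 hold nearly all Kit counts, and both Kitl-201 and Kitl-202 are higher in the 3 Nsun7-/- libraries.

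Kit counts lay almost wholly on the 2 full-length receptor forms, which held between 96.7% and 98.7% in the 6 libraries. None of the 3 Kit transcripts that could be tested passed, where of all 58773 tested transcripts 0.0119% rose and 0.0153% fell, 0.0272% in all (edgeR quasi-likelihood test). Kit-201, with the GNNK insertion, had 634 ± 159 estimated counts in WT and 749 ± 151 in Nsun7-/- (log2 fold change 0.07, 95% interval -0.65 to 0.79, adjusted p = 0.982). Kit-204, without it, had 1131 ± 289 and 1267 ± 344 (-0.0037, interval -0.47 to 0.47, adjusted p = 0.999; SD, n = 3). Both fold changes crossed 0 when WT mouse 2, WT mouse 3 or Nsun7-/- mouse 1 was left out.

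The share of the inserted receptor form varied more among mice than between genotypes. Kit-201 took 50.2%, 32% and 27.3% of the 2 forms in WT mice 1, 2 and 3 and 50.6%, 30.4% and 32.5% in Nsun7-/- mice 1, 2 and 3. The highest value of each genotype was that of the mouse numbered 1, and the other 4 libraries lay between 27.3% and 32.5%. The estimate rests on the 12 inserted bases and on 39 bases at the start of Kit-204 that Kit-201 lacks.

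Annotated Kit transcripts with a late start, called truncated here, were a small part of Kit in every library. The 4 that start after exon 10, the exon of the membrane span, were Kit-202, Kit-205, Kit-207 and Kit-208. They were taken by start position alone, and all 4 are annotated as retained-intron transcripts. Whether their counts come from truncated mRNA or from incompletely spliced Kit RNA was not tested. Together the 4 transcripts took 1.2%, 2.07% and 1.95% of Kit counts in WT mice 1, 2 and 3. In Nsun7-/- mice 1, 2 and 3 they took 2.94%, 1.07% and 2.54%. Nsun7-/- mouse 2 was the lowest and Nsun7-/- mouse 1 the highest of all, and the means of 1.74% ± 0.473 and 2.18% ± 0.984 (SD, n = 3) were not separated by an exact permutation test (two-sided p = 0.6). By TPM, which weights short transcripts more, the share was 8.47% ± 2.84 and 10.5% ± 4.93 (SD, n = 3, exact permutation p = 0.7).

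Of these, Kit-208 has the structure of the spermatid form shown above. It had 0 estimated counts in all 3 WT libraries and 11.8, 3.99 and 4.8 in Nsun7-/- mice 1, 2 and 3, or 0.637%, 0.198% and 0.204% of Kit. A count of 0 allows up to 3 counts, or between 0.158% and 0.183% of Kit in the WT libraries, so Nsun7-/- mice 2 and 3 lie close to that limit. This limit covers counting error only, and 2722 of the 3175 bases of Kit-208 are shared with the full-length forms. It was too low to be tested. Kit-205, which starts inside the intron before exon 14, held most of the truncated counts, 11.6 to 30.4 in WT and 13 to 40.2 in Nsun7-/-. Kit-207, a single block around exon 17 with intron sequence on both sides, had 8 to 18.1 and 2.34 to 19.4 counts. Kit-202 had 0 in all 6 libraries. The short Kit-203 and Kit-206, which start further upstream, had 0 to 7.04 counts per library. Spermatid RNA was abundant in both genotypes: the 10 elongating spermatid markers summed to between 7687 and 10027 CPM in WT and between 6606 and 9374 CPM in Nsun7-/-, and the 8 round spermatid markers to between 1026 and 1162 and between 961 and 1140 CPM.

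**Figure D3:**
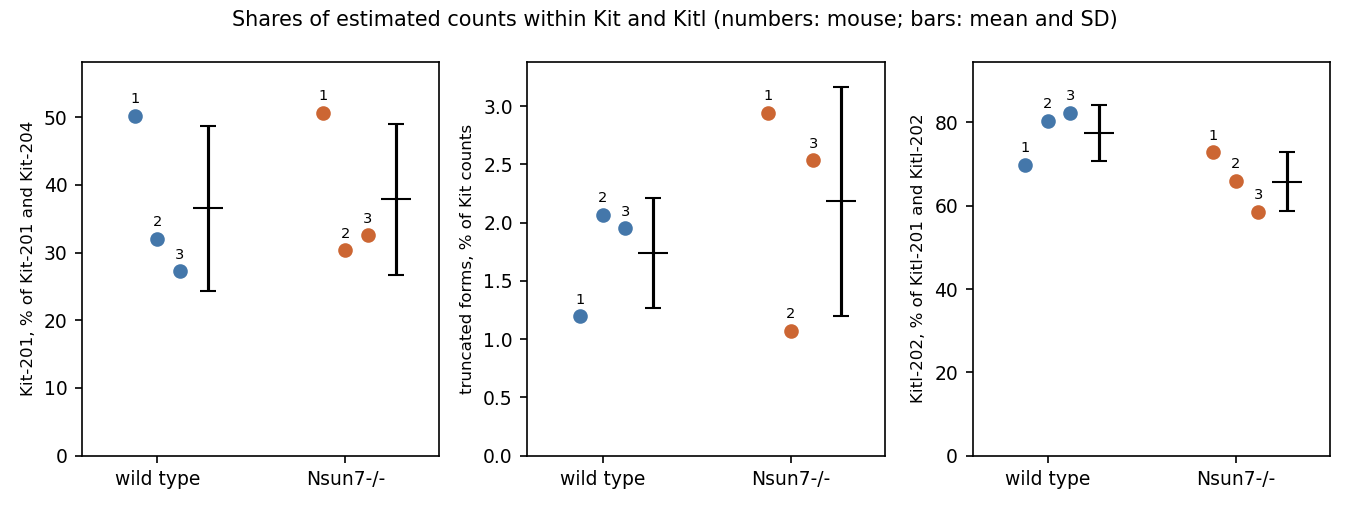
Percent of estimated counts on Kit-201 among the 2 full-length Kit forms (left), on the truncated forms among all Kit counts (middle) and on Kitl-202 among the 2 full-length Kitl forms (right), per library, with axes from 0. Points are mice, numbered, and bars are the mean and SD of 3. All of these shares overlap between the genotypes, and the mouse numbered 1 has the highest Kit-201 share in each.

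Markers of the cells that make the ligand did not pass the test. Of 16 Sertoli markers 0 passed (edgeR), their median log2 fold change was -0.07 against 0.01 over all tested genes, and 6 were above 0. Of all tested genes 0.567% passed and 52.5% were above 0. Amh, the anti-Müllerian hormone gene, stood at -0.44 (edgeR adjusted p = 0.578). Wt1, a transcription factor of Sertoli identity, was at 116 ± 2.17 and 116 ± 1.99 CPM, and Sox9, another, at 77.3 ± 7.46 and 69.5 ± 9.4 CPM (SD, n = 3); both were named after their values were seen. The 16 markers, of which none was at 0, summed to 5353, 5519 and 4594 CPM in WT mice 1, 2 and 3 and to 5522, 4727 and 3768 CPM in Nsun7-/- mice 1, 2 and 3. Nsun7-/- mouse 3, highest for Kitl, was lowest for this sum. Set against the sum, Kitl amounted to 1.25, 1.06 and 1.51 CPM per 1000 CPM of markers in WT and 2.03, 2.2 and 3.69 in Nsun7-/-. Clu, which other cells also transcribe, made up more than any other marker of that sum, and without it, also chosen after seeing the data, the ratio was 2.7 to 3.5 in WT and 4.74 to 8.43 in Nsun7-/-. These ratios move with Kitl and carry the choice of that gene, so they were not tested. The part of Sertoli cell number in the Kitl value was not tested either.

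Some markers of Leydig cells, the androgen-making cells between the tubules, were higher. Of 9 such markers, 2 rose, where 0.233% of all tested genes did, and 8 were above 0 (median 0.60). These were Hsd3b1, a steroid dehydrogenase (27.7 ± 5.46 to 62.2 ± 11.2 CPM, log2 fold change 1.17, edgeR adjusted p = 0.00345), and Hsd17b3, which makes testosterone (18.9 ± 2.89 to 33 ± 2.82 CPM, 0.80, adjusted p = 0.0182; SD, n = 3). Leaving out WT mouse 1, WT mouse 2 or Nsun7-/- mouse 2 took Hsd17b3 above the threshold, to adjusted p = 0.143, 0.0853 and 0.0928 in edgeR. The 9 markers summed to 3010, 2450 and 1869 CPM in WT mice 1, 2 and 3 and 5075, 3063 and 2294 CPM in Nsun7-/- mice 1, 2 and 3, with none of the 9 at 0. Nsun7-/- mouse 3, highest for Kitl, lay within the WT range of this sum, and the part of these cells in the Kitl value was not tested.

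Markers of the receptor's own germ cells did not pass. Of 9 markers of differentiating spermatogonia 0 passed, where 0.567% of all tested genes did, with a median of -0.26 and 7 below 0. Stra8, the retinoic acid target that opens meiosis, was at 13.8, 11.6 and 13.7 CPM in WT mice 1, 2 and 3 and at 9.82, 9.97 and 8.7 CPM in Nsun7-/- mice 1, 2 and 3, without overlap (log2 fold change -0.46, SE 0.14, edgeR adjusted p = 0.325). The X-linked homeobox gene Rhox13 was at -0.57 (adjusted p = 0.512). Kit per 1000 CPM of these markers was 147 ± 23 in WT and 143 ± 19.7 in Nsun7-/- (SD, n = 3). The sum rested mostly on Dmrtb1, a transcription factor gene of late spermatogonia, which was the most abundant marker (338 CPM in WT and 391 CPM in Nsun7-/-, log2 fold change 0.21). Without it, a choice made after seeing the data, the ratio was 398, 443 and 457 in WT mice 1, 2 and 3 and 488, 503 and 590 in Nsun7-/- mice 1, 2 and 3, higher in Nsun7-/- without overlap. Of 11 markers of undifferentiated spermatogonia, which lack or carry little Kit, 0 passed (median -0.02), with the T-box gene Eomes at -1.05 (adjusted p = 0.182) and the GDNF receptor gene Gfra1 at 0.52 (adjusted p = 0.404). Among 8 genes known to steer Kit in spermatogonia 0 passed (median -0.07). Their smallest p were those of Stra8 and of Dmrt1, a regulator of mitosis and meiosis (74.6 ± 8 and 60.9 ± 5.83 CPM, -0.29, adjusted p = 0.566).

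Most markers of mast cells, which also carry Kit, were at or near 0, but Hdc was not. Of their 8 markers 5 had no count in any library (Mcpt4, Tpsb2, Fcer1a, Ms4a2 and Cma1), and the proteases Cpa3 and Tpsab1 were under 0.2 CPM throughout. The 1 tested was the histidine decarboxylase gene Hdc, at 43 ± 4.79 CPM in WT and 50.1 ± 8.51 CPM in Nsun7-/- (SD, n = 3, log2 fold change 0.22, edgeR adjusted p = 0.67). Of 9 macrophage markers 0 passed (median 0.24, with Mrc1 at 0.24, adjusted p = 0.637, and Cd163 at 0.63, adjusted p = 0.641), and they summed to between 205.6 and 264.7 CPM in WT and between 212.9 and 343.8 CPM in Nsun7-/-. Of 7 peritubular myoid markers 0 passed and all 7 were below 0 (median -0.21, the intermediate filament gene Des at -0.39, adjusted p = 0.485, the actin-binding gene Tagln at -0.35, adjusted p = 0.512). Of all tested genes 0.567% passed and 52.5% were above 0. The 7 markers summed to between 753.8 and 793.1 CPM in WT and between 610.1 and 728.8 CPM in Nsun7-/-, without overlap. Nsun7-/- mouse 3 was lowest for this sum, and also for the Sertoli and spermatid sums. The part of peritubular cells in the values of Kit and Kitl was not tested. Of 6 endothelial markers 0 passed (median 0.09, with Kdr at 0.39, adjusted p = 0.613, and Pecam1 at 0.30, adjusted p = 0.738). The spermatid lists had 0 of 8 (round, median 0.01, with Spaca1 at 0.33, adjusted p = 0.591, and Izumo1 at 0.19, adjusted p = 0.694) and 0 of 10 (elongating, median -0.22, with Prm3 at -0.53, adjusted p = 0.479, and Tnp2 at -0.39, adjusted p = 0.542).

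Downstream of the receptor, no listed gene passed in either direction. Of 35 effectors, the adaptors, kinases and transcription factors that carry the Kit signal, 0 rose and 0 fell (median 0.03, 20 above 0). Over all tested genes only 0.233% rose and 0.333% fell, so 0 in lists this short says little about them. Jak2, a kinase that binds the receptor, was at 4.5 ± 0.221 and 6.47 ± 0.729 CPM (SD, n = 3), without overlap (log2 fold change 0.52, edgeR adjusted p = 0.335), and Pik3cb, a catalytic PI3-kinase subunit, was at 0.39 (adjusted p = 0.553). Of 13 genes that damp the signal 0 passed (median 0.02), with the adaptor Dok2 at -0.31 (adjusted p = 0.631). The sign of Dok2 turned on the TPM scale. Of 4 partners through which truncated Kit acts in the egg 0 passed (median -0.06), with Fyn at 0.07 (adjusted p = 0.85) and Plcg1, the phospholipase it activates, at -0.07 (adjusted p = 0.868), a sign that turned on the TPM scale.

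The genes that release the ligand from the membrane did not pass either. Of 5 listed, 4 were tested and 0 passed (median 0.25), where 0.567% of all tested genes did. The chymase Cma1 had no count. Adam17, a sheddase, was at 25.2, 23.7 and 23.4 CPM in WT mice 1, 2 and 3 and 27.6, 26.4 and 35.9 CPM in Nsun7-/- mice 1, 2 and 3 (log2 fold change 0.32, edgeR adjusted p = 0.578). Timp3, an inhibitor of Adam17, was at 102, 113 and 100 CPM in WT and 88, 80.4 and 73 CPM in Nsun7-/- (-0.39, SE 0.12, adjusted p = 0.299). Neither overlapped between the genotypes, and on the TPM scale Timp3 stood near 0 (0.012).

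Among other factors of the spermatogonial niche, Cxcl12 rose. This chemokine, which draws germ cells through the receptor Cxcr4, was at 16.5, 18.5 and 17 CPM in WT mice 1, 2 and 3 and at 35.6, 27.4 and 29.8 CPM in Nsun7-/- mice 1, 2 and 3. Its lowest Nsun7-/- value lay well above its highest WT value (log2 fold change 0.83, SE 0.14, edgeR adjusted p = 0.00937). It was the 1 of 13 tested niche genes to pass (median 0.12) and the 1 among all 84 tested genes of the signalling, family and niche lists. Of all tested genes 0.567% passed. Leaving out WT mouse 1 or 3 took Cxcl12 above the threshold (edgeR adjusted p = 0.107 and 0.0695), as did log2(TPM + 1) with limma (log2 difference 1.12, adjusted p = 0.0523). Aldh1a1, a retinaldehyde dehydrogenase, was at 133 ± 22 and 196 ± 41.5 CPM (SD, n = 3), without overlap (0.56, adjusted p = 0.248). Gdnf, the Sertoli factor that maintains stem spermatogonia, was at 2.65 ± 1.06 and 2.46 ± 0.474 CPM; it was named after its values were seen, as the best known member.

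Kit belongs with the PDGF, CSF1 and FLT3 receptors to the class III receptor tyrosine kinases. Of the other 4 receptors and their 7 ligands 0 passed (median 0.17, 8 of 11 above 0). Of all tested genes 0.567% passed and 52.5% were above 0. Pdgfra, a receptor of peritubular and Leydig-lineage cells that lies beside Kit on chromosome 5, was at 35.2, 49.9 and 45.7 CPM in WT mice 1, 2 and 3 and at 66.2, 67.1 and 58.5 CPM in Nsun7-/- mice 1, 2 and 3 (log2 fold change 0.55, SE 0.14, edgeR adjusted p = 0.135). Pdgfrb, its relative, was at -0.50 (SE 0.15, adjusted p = 0.271), with Nsun7-/- below WT and no overlap in CPM. In WT TPM the receptors ran in the order Kit (17.2 ± 3.37), Csf1r (17 ± 2.02), Pdgfra (15.9 ± 4.97), Pdgfrb (5.48 ± 1.61) and Flt3 (1.4 ± 0.472), where the first 3 overlapped one another (SD, n = 3). Among the ligands Pdgfa (14 ± 1.19) lay above Kitl (8.94 ± 1.55) in WT, and in Nsun7-/- Kitl (18.3 ± 3.95) lay above Pdgfa (13.5 ± 0.682), without overlap in either genotype. This order holds for gene TPM of Kitl, the level it was chosen for, and its full-length transcripts alone reached 4.66 ± 2.41 TPM in Nsun7-/- (SD, n = 3).

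**Figure D4:**
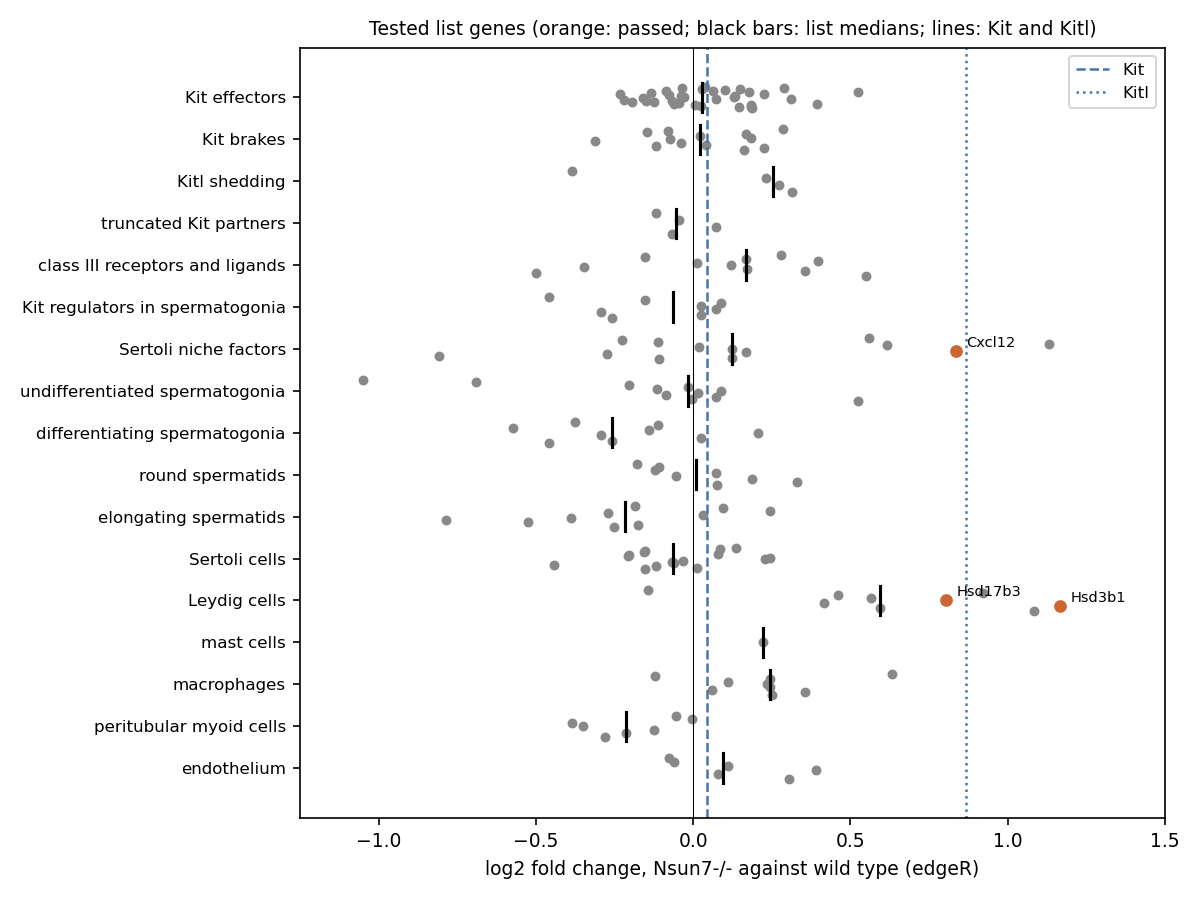
Log2 fold changes (Nsun7-/- against WT, edgeR) of all tested genes of each list, 1 point per gene. Orange points passed an adjusted p of 0.05, black bars are list medians, and vertical lines give Kit (dashed) and Kitl (dotted). Cxcl12, Hsd3b1 and Hsd17b3 are the 3 genes that passed, and the list medians lie between -0.26 and 0.60.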

How the data were processed

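The submitters' processing notes name kallisto 0.50.1 and mm39; annotation release and strand setting were not given in the sources used here. Estimated counts and TPM were deposited by the authors per transcript, and again per gene symbol with whole counts. For Kit and Kitl these equalled the summed transcript estimates to within 0.005 counts. Transcripts were matched by ID to GENCODE M21 (GRCm38), used for names, exon order and sequence, so no coordinates are printed; no other M21 gene overlaps Kit or Kitl.

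Estimated counts (transcripts rounded) entered edgeR 4.0.16 in R 4.3.3: TMM, filterByExpr (minimum count 10, total 15), robust quasi-likelihood test with genotype as the sole term, Benjamini-Hochberg adjustment over all 21002 genes or 58773 transcripts, threshold 0.05. SEs are the log2 fold change over the square root of F. Positive values mean higher in Nsun7-/-. TPM was tested as log2(TPM + 1) and log2(TPM + 0.1) with limma 3.58.1, and counts also with DESeq2 1.42.0. Other alternatives were RLE and upper quartile scaling, other low-count filters, the Rmrp row removed, a replicate block and single libraries left out. Tests were checked on simulated data. Named are the members, the 2 genes of smallest p and all that passed from each of 17 lists, the neighbours and the 5 most similar genes; some genes that this rule names are not reported here. Members and lists were chosen with earlier results of these data known, and lists share some genes (172 symbols, 163 tested).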

Additional observations from a re-analysis of the deposited data

How the results depend on the processing

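Kit kept its direction and stayed above the threshold under all 16 alternatives (log2 fold change 0.02 to 0.40, the highest on log2 TPM), and Kitl stayed between 0.73 (without Nsun7-/- mouse 3) and 1.01 (log2 TPM + 0.1). Without WT mouse 1 and Nsun7-/- mouse 3 together they stood at 0.05 and 0.76, and there Pecam1 turned to -0.048. The 119 genes that passed became 180 with no low-count filter, 203 with DESeq2, and 61 and 68 on log2 TPM with pseudocounts of 1 and 0.1, of which 44 and 48 were higher against 49 of the 119. Leaving out 1 library gave 67 to 166 genes and 1 to 3 of the 3 list genes. The labels do not say whether mouse numbers pair the samples. Same-numbered mice correlated at 0.18, -0.0048 and 0.20 in their deviations from the group means. Differently numbered mice correlated between -0.24 and 0.06, so these correlations do not settle the pairing. With the number as a replicate block 331 genes passed, and 7 list genes, Pdgfra among them (edgeR adjusted p = 0.0148), while Kit did not. On log2 TPM Dok2 (0.31 and 0.34), Timp3 (0.012 and 0.012) and Plcg1 (0.17 and 0.17) turned positive. Leaving out 1 library moved Kit-201 between -0.20 and 0.39, Kit-204 between -0.14 and 0.13 and Kit-205 between -0.041 and 0.75; without WT mouse 2, WT mouse 3 and Nsun7-/- mouse 1 Kit-201 stood at -0.02, -0.11 and -0.20 and Kit-204 at 0.04, 0.10 and 0.13. The cause was not tested. The truncated Kit share differed by 0.0642 to 0.999 percentage points, and the exon 6 share of Kitl by -15.5 to -8.07, with 1 library left out. Kitl rests on 148 to 430 counts per library, with a counting error between 4.82% and 8.22%, while its spread between mice was 8.76% in WT and 15.5% in Nsun7-/-.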

Other observations

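Genes beside Kit and Kitl were read from the gene order of GENCODE M21. Kit lies on the chromosome of Nsun7, with 47 tested genes between them. Of the 10 tested genes nearest to Kit, 5 on each side, 0 passed, and their log2 fold changes ran from -0.09 (Chic2) to 1.47 (the noncoding Gm19583, at 0.404 CPM in WT and 1.13 CPM in Nsun7-/-). The receptor genes on its sides, Pdgfra and Kdr, stood at 0.55 and 0.39, while Tmem165 and Clock further on stood at 0.06 and 0.04. Of the 10 genes nearest to Kitl on chromosome 10, 1 passed, where 0.567% of all tested genes did. The gene that passed was Csl, the neighbour before Kitl in that order, at 165 CPM in WT and 245 CPM in Nsun7-/- (log2 fold change 0.57, SE 0.11). A cause shared with Kitl was not tested. The noncoding Gm35533 after Kitl was at 0.66 (SE 0.42), the next coding gene Tmtc3 at 0.27, Cep290 at -0.05 and Dusp6, a phosphatase of ERK, at -0.05.

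Over the 6 libraries the genes whose log2 CPM followed Kitl most closely, among 15094 compared, were Sdad1 (Pearson r = 0.99), Pwwp3b (0.99), Iqgap2 (0.99), Bivm (0.99) and Rapgef4 (0.98). Sdad1 was at 39.9, 36.5 and 37.3 CPM in WT mice 1, 2 and 3 and at 56.1, 52.4 and 68.6 CPM in Nsun7-/- mice 1, 2 and 3, with the highest value in Nsun7-/- mouse 3 as for Kitl. Those closest to Kit were Mlkl (0.98), A2m (0.98), Gas2l3 (0.98), Nr4a2 (0.98) and Scgb2b23-ps (0.97), where Kit ranged only from 72.1 to 76.1 CPM, with a counting error between 2.06% and 2.47% per library. Kit and Kitl followed each other at r = 0.90. These are descriptions over 6 points that share libraries, depth and genotype, and the genes were picked as the highest of many.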
